A study of Mus musculus with 18 samples.

Results

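The eicosanoid synthesis and breakdown enzymes described here are the phospholipase gene Pla2g4a, the prostanoid genes Ptgs1, Ptgs2, Ptges and Hpgds, the prostaglandin-inactivating gene Hpgd, and the leukotriene genes Alox5, Alox5ap, Lta4h and Ltc4s. They were chosen by symbol, with earlier results of these data known. Each symbol matched 1 row, which gave 10 of the 31053 genes listed, and all 10 had enough counts to be tested. Their mRNA was measured by bulk RNA-Seq in 18 libraries of BM-derived macrophages, which are macrophages grown from bone marrow (BM) in culture. The libraries came from 6 C57Bl/6J mice of 12 weeks, 3 wild type (Slc7a7+/+) and 3 knockout (Slc7a7-/-), and the cells of each mouse were split over 3 media. In the knockout, Slc7a7 is removed by LysM-Cre, a recombinase under a promoter of the myeloid lineage. Slc7a7 encodes a subunit of an exchanger of cationic and large neutral amino acids at the plasma membrane. After 7 days of culture the cells were kept for 24 h with vehicle (control), with 50 µg/mL acetylated LDL (AcLDL) or with 100 µg/mL oxidized LDL (OxLDL). Both are modified low-density lipoproteins that macrophages take up until they fill with lipid. Each of the 6 groups held 3 libraries, 1 per mouse.

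Eicosanoids are signalling lipids made from arachidonic acid, which cytosolic phospholipase A2 (Pla2g4a) cuts out of membrane phospholipids. Cyclooxygenases (Ptgs1, Ptgs2) turn it into prostaglandin H2, from which terminal synthases make prostaglandin E2 (Ptges) or D2 (Hpgds). The enzyme 15-hydroxyprostaglandin dehydrogenase (Hpgd) inactivates prostaglandin E2. Along the other branch, 5-lipoxygenase (Alox5) with its activating protein (Alox5ap) makes leukotriene A4, which becomes leukotriene B4 (Lta4h) or leukotriene C4 (Ltc4s). Macrophages carry both branches, and inflammatory stimuli are known to induce Ptgs2 and Ptges in them.

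Library totals lay between 1043492 and 1768816 counts, with a median of 1466145, so that 3 counts stood for 1.67 to 2.85 CPM. CPM are counts scaled by library size to a common total. All 10 macrophage markers of the list used were detected in every group, with Csf1r at 1312 to 3000 CPM and Adgre1 at 795 to 2170 CPM. The summed level of these markers moved with the groups. It was 25108 to 35874 CPM in wild type control, 26403 to 36366 in AcLDL and 21489 to 30542 in OxLDL, and 18299 to 21698, 15508 to 18106 and 12801 to 14868 CPM in the knockout. A sum without Lyz2, the most abundant of them, was also taken. In wild type it was 4610 to 7505 CPM in control, 4637 to 6064 in AcLDL and 3620 to 5946 in OxLDL. In the knockout it was 6361 to 7529, 5412 to 6154 and 4390 to 5379 CPM, so the genotypes overlapped in each medium. The part of either sum in the results that follow was not tested. The mast cell genes Cpa3, Fcer1a, Tpsb2 and Cma1, which mark a cell type rich in Hpgds and Ltc4s, had 0 counts in all 18 libraries. Of the 10 genes of that mast cell and basophil list, the other 6 (Kit, Gata2, Ms4a2, Hdc, Mcpt8 and Prss34) had at most 2 counts in any library, 1 to 4 were detected per group, and the list summed to 0 to 3.37 CPM per library. Slc7a7 was lower in the knockout in each medium, at 6.58 ± 3.20 CPM against 14.9 ± 5.41 CPM in control medium (SD, n = 3), 3.27 ± 1.69 against 25.3 ± 2.74 CPM in AcLDL and 9.91 ± 1.15 against 28.0 ± 1.81 CPM in OxLDL.

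Promoter windows are shown for Pla2g4a, Ptgs1, Hpgds and Hpgd, whose mRNA differed with LDL in the results that follow, and for Ptgs2, the inducible cyclooxygenase that was nearly uncounted. They were searched for 7 short motifs. The windows run from 180 bases before the RefSeq start to base 30 of the transcript (build GRCm38.p6). Of the 10 genes 9 had one, and no window was available for Alox5ap, which also differed with OxLDL. Capitals mark the motif letters found on either strand. Ptgs1 (chr2:36230246-36230455, + strand) and Hpgds (chr6:65144701-65144910, - strand) held the letters GAGGAAGT of a PU.1 motif, at positions -24 and -49 from the start. Hpgd (chr8:56294372-56294581, + strand) held a GC box (GGGCGG, on the other strand) at -50 and the TATA box letters TATAAA at 5. In the gene annotation used below, Hpgd starts at chr8:56294585, past the end of this window, so these positions hold for the RefSeq start only. Ptgs2 (chr1:150099851-150100060, + strand) held a GC box at -170, the C/EBP letters TTGCGCAA at -69, and a CRE half-site (TGACGT, on the other strand) at 13 that overlaps an E-box (CACGTG) at 17.
Pla2g4a: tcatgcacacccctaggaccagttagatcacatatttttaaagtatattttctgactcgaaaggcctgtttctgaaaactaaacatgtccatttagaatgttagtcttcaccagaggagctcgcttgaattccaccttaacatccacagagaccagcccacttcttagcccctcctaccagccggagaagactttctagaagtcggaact
Ptgs1: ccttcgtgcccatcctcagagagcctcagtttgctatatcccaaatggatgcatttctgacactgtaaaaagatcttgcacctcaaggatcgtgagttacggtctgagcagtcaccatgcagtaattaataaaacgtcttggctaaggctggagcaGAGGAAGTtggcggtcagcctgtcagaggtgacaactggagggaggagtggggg
Hpgds: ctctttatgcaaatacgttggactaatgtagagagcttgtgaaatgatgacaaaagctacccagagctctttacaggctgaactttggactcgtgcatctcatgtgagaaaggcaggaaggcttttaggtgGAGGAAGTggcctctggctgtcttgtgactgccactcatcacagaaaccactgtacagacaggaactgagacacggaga
Hpgd: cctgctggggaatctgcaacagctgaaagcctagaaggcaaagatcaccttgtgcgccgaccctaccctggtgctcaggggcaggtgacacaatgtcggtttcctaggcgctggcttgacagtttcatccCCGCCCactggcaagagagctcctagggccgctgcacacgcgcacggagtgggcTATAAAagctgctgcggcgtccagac
Ptgs2: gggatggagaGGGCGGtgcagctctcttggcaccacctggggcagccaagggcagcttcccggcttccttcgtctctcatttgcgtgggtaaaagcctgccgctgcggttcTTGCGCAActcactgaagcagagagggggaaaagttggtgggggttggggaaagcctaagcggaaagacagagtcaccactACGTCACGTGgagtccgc
Of 32851 promoter windows of the same length, 2.22% held the PU.1 letters, 0.14% the C/EBP letters, 32.4% the GC box, 9.71% the TATA letters, 6.40% the CRE half-site, 5.60% the E-box and 5.71% the AP-1 letters TGANTCA, which none of the members' windows held. The windows of Pla2g4a, shown for the start farther upstream (chr1:149961261-149961470, - strand), Lta4h and Ltc4s held none of the 7. Letters that match say nothing of whether a factor was bound in these cells.

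Per kilobase of exon, Alox5ap was the most abundant member, with a median of 216 CPM per kb over the 18 libraries, and it exceeded the next gene in all 18. Hpgd (50.3 CPM per kb) and Hpgds (43.9 CPM per kb) followed, with Hpgd the higher of the pair in only 12 libraries. Lta4h (29.9 CPM per kb), Pla2g4a (16.8 CPM per kb) and Ptgs1 (10.8 CPM per kb) came next, and Pla2g4a exceeded Ptgs1 in 12 libraries. Alox5 had a median of 3.83 and Ltc4s of 2.67 CPM per kb, with Alox5 the higher in 14 libraries. Ptges (0.446 CPM per kb) and Ptgs2 (0.347 CPM per kb) came last, and Ptges was the higher in 9 of the 18 libraries, so their order was not resolved. The macrophages thus held the mRNA of the activating protein Alox5ap far above that of its partner Alox5, and that of the constitutive cyclooxygenase Ptgs1 above that of the inducible Ptgs2.

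**Figure D1:**
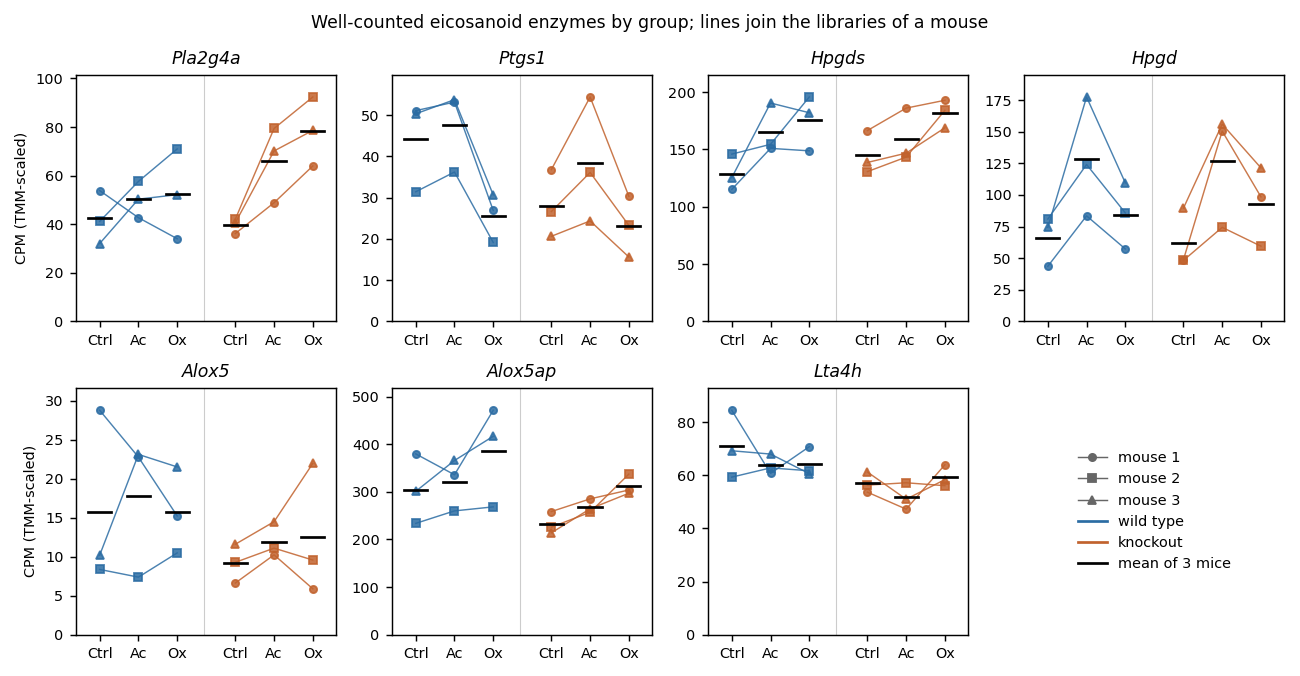
Level (TMM-scaled CPM, y axis from 0) of the 7 members with more than 3 counts in every library, by medium (x axis: Ctrl, control; Ac, AcLDL; Ox, OxLDL) in wild type (blue) and knockout (orange). Each point is 1 library, a line joins the 3 libraries of a mouse, and the bar is the mean of 3 mice; Hpgd is highest in AcLDL in all 6 mice, and Ptgs1 is lowest in OxLDL in all 6.

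A medium or genotype effect was tested with edgeR's quasi-likelihood test over all genes, with Benjamini-Hochberg adjustment and a threshold of 0.05. The reported fit had 1 mean per group. Since the 3 libraries of a mouse are paired, the fit with the mouse as a block is given beside it wherever it changed a call of a member. AcLDL and OxLDL were each compared with the same control libraries. With AcLDL in wild type, 0 of 10 members passed without the block, where 0.472% of all genes passed, and 2 members had an unadjusted p under 0.05, as 7.33% of all genes did. With the block 1 member passed, against 2.16% of all genes. With AcLDL in the knockout, 0 members passed without the block (0.521% of all genes passed, and an unadjusted p under 0.05 was seen for 2 members and 7.53% of all genes) and 2 passed with it (2.50% of all genes). With OxLDL in wild type, 0 members passed without the block (1.34% of all genes passed, and an unadjusted p under 0.05 was seen for 2 members and 10% of all genes) and 3 passed with it (4.39% of all genes). With OxLDL in the knockout, 1 member passed without the block (2.32% of all genes passed, and an unadjusted p under 0.05 was seen for 4 members and 12.3% of all genes) and 4 passed with it (7.18% of all genes). The LDL and control libraries did not overlap for 2 members with AcLDL in wild type (11% of all genes), 1 with AcLDL in the knockout (16.7%), 2 with OxLDL in wild type (11.8%) and 4 with OxLDL in the knockout (21.6%).

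The median log2 fold change of the 10 members was 0.17 with AcLDL in wild type, 0.16 with AcLDL in the knockout, 0.24 with OxLDL in wild type and 0.19 with OxLDL in the knockout. Over all genes tested the 4 medians lay between -0.0046 and 0.0079. Without the block the only call was Pla2g4a, higher with OxLDL in the knockout. With the block the calls went in both directions, with Pla2g4a, Hpgd, Hpgds and Alox5ap higher and Ptgs1 lower.

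**Figure D2:**
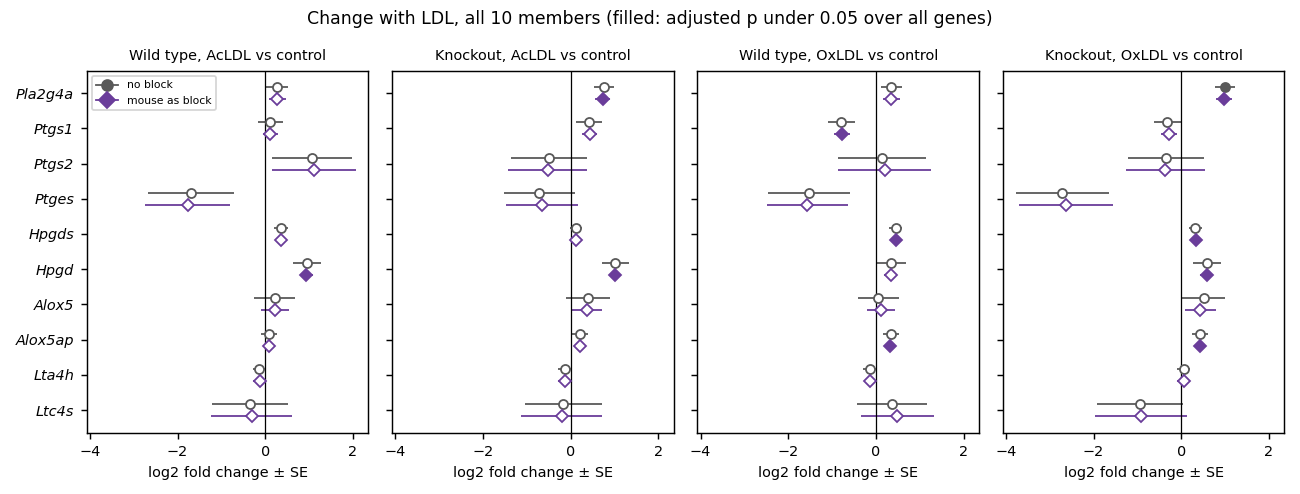
Log2 fold change with LDL against control (x axis, ± SE) for all 10 members (y axis) in the 4 LDL comparisons, from the fit without the block (grey circles) and with the mouse as a block (purple diamonds). A filled symbol marks an adjusted p under 0.05 over all genes: Pla2g4a in the knockout with OxLDL is filled in both fits, and the 3 sparsely counted members Ptgs2, Ptges and Ltc4s carry the widest errors.

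Pla2g4a, which releases the arachidonic acid that both branches use, rose with OxLDL in the knockout (ENSMUSG00000056220, GRCm38 chr1:149829618-149961290, - strand). The 3 knockout mice had 36.2, 42.1 and 40.6 CPM in control medium and 64.0, 92.4 and 78.6 CPM in OxLDL. The groups did not overlap, and each knockout mouse was higher in OxLDL, by 0.80, 1.11 and 0.93 on the log2 scale. The fold was 1.98 (log2 fold change 0.99, SE 0.23, edgeR adjusted p = 0.0155). This call was lost when the knockout control library of mouse 1 or 3 was left out (adjusted p = 0.0826 and 0.0601) or the knockout OxLDL library of mouse 2 or 3 (0.122 and 0.0659). With the mouse as a block the adjusted p was 0.00016, and it stayed at 0.0118 or below when any mouse was left out.

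With AcLDL the knockout mice had 48.9, 79.4 and 70.2 CPM of Pla2g4a, again above all 3 control libraries. The log2 fold change was 0.75 (SE 0.23), with an edgeR adjusted p of 0.216 without the block. With the block Pla2g4a rose by 0.73 (SE 0.18, adjusted p = 0.0129), and the adjusted p was 0.235 without mouse 2 and 0.160 without mouse 3. In wild type the mice diverged. Wild type mouse 1 went from 53.8 CPM in control to 42.7 in AcLDL and 34.0 in OxLDL, while mouse 2 went from 41.2 to 57.6 and 71.0 CPM and mouse 3 from 32.1 to 50.3 and 52.2 CPM. The wild type log2 fold changes were 0.27 (SE 0.24) with AcLDL and 0.35 (SE 0.24) with OxLDL, and neither passed in either fit. Without wild type mouse 1 the blocked fit called the OxLDL value (0.75, SE 0.19, edgeR adjusted p = 0.00961), while without mouse 2 it was 0.064 and without mouse 3 it was 0.18. The knockout response to OxLDL exceeded that of wild type by 0.64 (SE 0.33, edgeR adjusted p = 1). With the block the difference was 0.62 (SE 0.26, edgeR unadjusted p = 0.0214) and was not called after adjustment. A response particular to the knockout was thus not shown. The genes whose log2 CPM followed Pla2g4a most closely over the 18 libraries, among 9830 genes, were Mllt10 (Pearson r 0.862), Zgrf1 (0.857) and Hip1 (0.857), a description over libraries that share mice and media.

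Ptgs1, the cyclooxygenase that most cells carry at rest, was lower in OxLDL than in control in 6 of 6 mice (ENSMUSG00000047250, GRCm38 chr2:36230426-36252272, + strand). Over all genes, 7.49% were lower in all 6. In wild type the control libraries had 51.1, 31.4 and 50.3 CPM and the OxLDL libraries 26.9, 19.1 and 30.6 CPM, and the groups did not overlap. Ptgs1 fell by 0.79 on the log2 scale (SE 0.30), which did not pass without the block (edgeR adjusted p = 0.304) and passed with it (-0.78, SE 0.18, adjusted p = 0.00568). Without wild type mouse 1 or 3 the blocked adjusted p was 0.0565 and 0.0581. In the knockout the values were 36.8, 26.6 and 20.6 CPM in control and 30.3, 23.3 and 15.6 CPM in OxLDL, and the groups overlapped. The knockout log2 fold change was -0.32 (SE 0.31) and passed in neither fit, and the gap between the responses, 0.47 (SE 0.43), had an edgeR adjusted p of 1.

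With AcLDL, Ptgs1 was higher than control in 6 of 6 mice, by 0.056 to 0.55 on the log2 scale, where 4.74% of all genes were higher in all 6. The log2 fold changes were 0.11 (SE 0.28) in wild type, where the levels were 53.1, 36.2 and 53.7 CPM, and 0.42 (SE 0.29) in the knockout, where they were 54.4, 36.1 and 24.4 CPM, and neither passed. OxLDL was given at a higher dose than AcLDL, so the LDLs are set side by side here and their difference in dose is part of each direct comparison. In that comparison, 0 of 10 members passed without the block in wild type (0.00814% of all genes passed, and an unadjusted p under 0.05 was seen for 1 member and 5.14% of all genes) and 0 in the knockout (0.0651% of all genes, and unadjusted 1 member and 5.55%). With the block 2 members passed in wild type (0.732% of all genes) and 1 in the knockout (1.38% of all genes). The LDLs did not overlap for 1 member in wild type (9.20% of all genes) and 1 in the knockout (13.4%). Ptgs1 was lower in OxLDL than in AcLDL in 6 of 6 mice, against 4.72% of all genes. Its blocked log2 difference was -0.89 (SE 0.18, edgeR adjusted p = 0.00636) in wild type and -0.71 (SE 0.18, adjusted p = 0.0370) in the knockout. Without 1 of the wild type mice that p lay between 0.0522 and 0.0666, and without 1 of the knockout mice between 0.153 and 0.335.

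**Figure D3:**
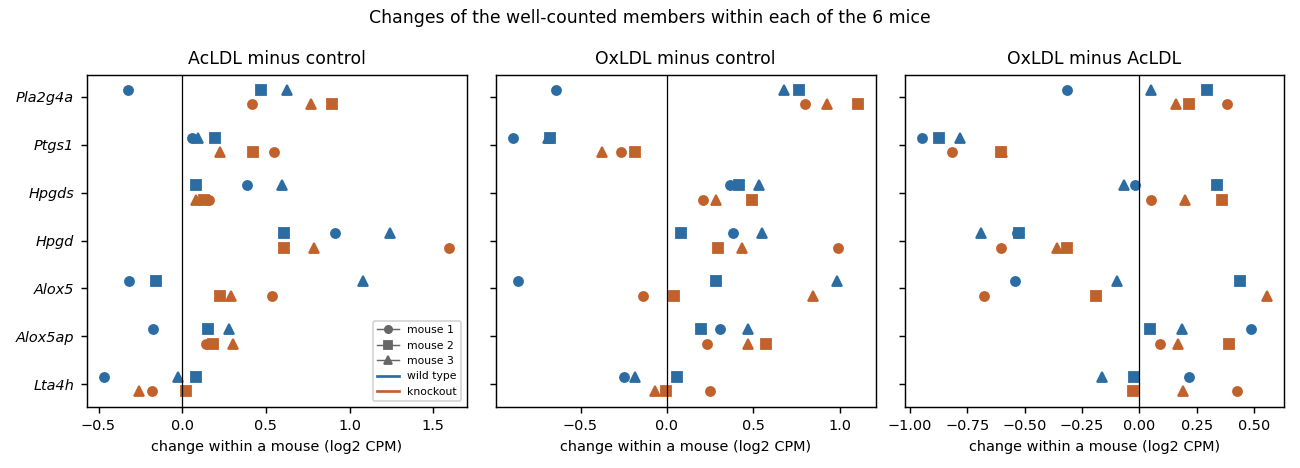
Change within each mouse (x axis, difference of log2 CPM, 0 marked by a line) for the 7 well-counted members (y axis), for AcLDL against control (left), OxLDL against control (middle) and OxLDL against AcLDL (right); wild type mice are blue, knockout mice orange, and equal shapes in the 2 genotypes are different mice. With AcLDL all 6 points of Hpgd lie above 0.60, with OxLDL all 6 of Ptgs1 lie below 0, and Pla2g4a lies above 0 in all knockout mice but below 0 in wild type mouse 1.

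Ptgs2, the inducible cyclooxygenase, and Ptges, the prostaglandin E2 synthase that is induced beside it, were at the limit of counting. Ptgs2 had 0 to 8 counts per library, with 3 counts or fewer in 14 of 18, and Ptges 0 to 10 counts, with 3 or fewer in 12. In wild type the Ptgs2 counts were 2, 3 and 0 in control, 1, 8 and 2 in AcLDL and 3, 2 and 1 in OxLDL. In the knockout they were 1, 4 and 5 in control, 1, 2 and 4 in AcLDL and 3, 1 and 3 in OxLDL. No difference in Ptgs2 was detectable at this depth, as the intervals of its ratio between the groups compared, which cover counting error only, all included 1.

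The Ptges counts in the knockout were 10, 3 and 4 in control, 4, 5 and 1 in AcLDL and 1, 1 and 0 in OxLDL. Summed over mice, 2 counts in OxLDL stood against 17 in control, a depth-adjusted ratio of 0.130 (exact 95% interval 0.0145 to 0.546, counting error only). In wild type the counts were 4, 2 and 8 in control, 3, 1 and 0 in AcLDL and 3, 2 and 0 in OxLDL, with a ratio of 0.325 for OxLDL (0.0915 to 0.954) and 0.286 for AcLDL (0.0686 to 0.911). After scaling, Ptges was lower in OxLDL than in control in 6 of 6 mice, as 7.49% of all genes were, but wild type mouse 2 had 2 counts in both media and wild type mouse 1 had 4 against 3. Neither fit called it, with an edgeR adjusted p of 0.255 in the knockout without the block and 0.156 with it. In the annotation Ptges overlaps Gm13400 on the same strand, and 0.357% of its 3920 transcript words of 31 bases occur in transcripts of other genes. An effect of the overlap on these few counts was not tested.

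**Figure D4:**
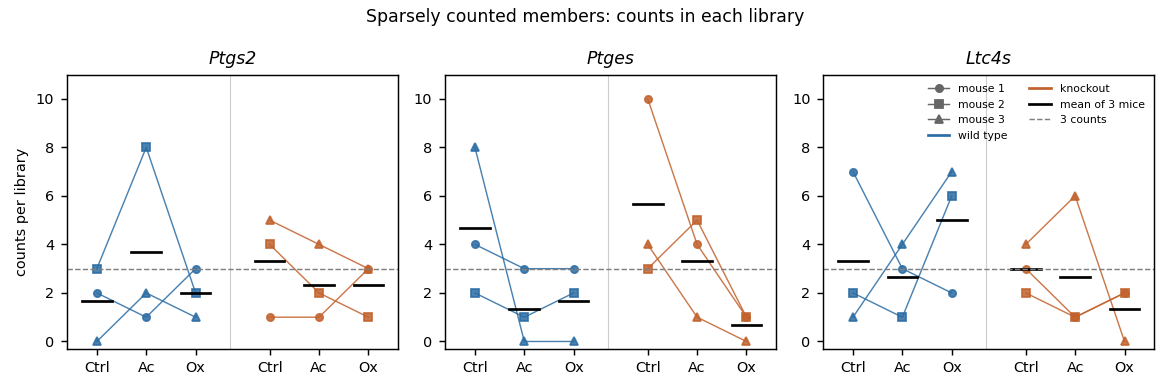
Counts per library (y axis) of the 3 sparsely counted members Ptgs2, Ptges and Ltc4s by medium (x axis: Ctrl, control; Ac, AcLDL; Ox, OxLDL) in wild type (blue) and knockout (orange); lines join the libraries of a mouse, bars are means of 3 mice, and the dashed line is at 3 counts. Most points lie at or under the line, and the knockout OxLDL libraries of Ptges hold 1, 1 and 0 counts.

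Hpgds, the haematopoietic prostaglandin D2 synthase, was higher than control in 6 of 6 mice with either LDL, where 4.74% of all genes were higher in all 6 with AcLDL and 5.55% with OxLDL (ENSMUSG00000029919, GRCm38 chr6:65117293-65144908, - strand). In wild type its levels were 115, 146 and 125 CPM in control, 151, 154 and 190 CPM in AcLDL and 149, 196 and 182 CPM in OxLDL, so both LDL groups lay above the control group. In the knockout they were 166, 131 and 139 CPM in control, 186, 143 and 147 CPM in AcLDL and 193, 184 and 169 CPM in OxLDL, and only the OxLDL group lay above the control. With the block Hpgds rose with OxLDL in wild type by 0.45 (SE 0.11, edgeR adjusted p = 0.00988) and in the knockout by 0.33 (SE 0.10, adjusted p = 0.0459). Without the block the adjusted p was 0.195 and 0.351. The blocked call in wild type was lost without mouse 2 (0.0507) or mouse 3 (0.134), and that in the knockout without any 1 of the mice (0.0703 to 0.363). With AcLDL the log2 fold change in wild type was 0.36 (SE 0.15) and passed in neither fit, though it passed in the blocked fit without mouse 2 (adjusted p = 0.0364).

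Hpgd, which breaks down prostaglandins E2 and F2 alpha and so ends their action, showed the largest change of the well-counted members with AcLDL in either genotype (ENSMUSG00000031613, GRCm38 chr8:56294585-56321043, + strand). It overlaps Gm45540 on the same strand, and 0.0% of its 1653 transcript words of 31 bases occur in transcripts of other genes. An effect of the overlap on the counts was not tested. In wild type Hpgd had 43.6, 81.0 and 74.4 CPM in control and 83.5, 124 and 177 CPM in AcLDL, and the groups did not overlap. In the knockout it had 48.8, 48.3 and 89.6 CPM in control and 151, 74.4 and 156 CPM in AcLDL, where mouse 2 in AcLDL stayed under mouse 3 in control. Within mice, Hpgd was higher in AcLDL in 6 of 6, by 0.61 to 1.60 on the log2 scale. The fold was 1.93 in wild type and 2.03 in the knockout, and neither passed without the block (edgeR adjusted p = 0.364 and 0.232). With the block Hpgd rose by 0.94 in wild type (SE 0.15, adjusted p = 7.9e-05) and by 1.01 in the knockout (SE 0.14, adjusted p = 1.12e-05). Both blocked calls held when any mouse was left out, with adjusted p up to 0.0383 in wild type and 0.00439 in the knockout.

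With OxLDL, Hpgd was again higher than control in 6 of 6 mice, at 57.3, 85.8 and 110 CPM in wild type and 98.5, 59.5 and 121 CPM in the knockout. In wild type the log2 fold change was 0.34 (SE 0.33) and passed in neither fit. In the knockout it was 0.59 (SE 0.32, edgeR adjusted p = 0.495), and with the block Hpgd rose by 0.58 (SE 0.15, adjusted p = 0.0105), a call lost without mouse 1 (0.205). OxLDL levels were under AcLDL levels in 6 of 6 mice. The blocked log2 difference was -0.61 in wild type (SE 0.14, adjusted p = 0.0251), which was lost without mouse 2 (0.0679) or mouse 3 (0.275), and in the knockout it was not called (adjusted p = 0.128). The level of Hpgd itself differed between mice in every medium. Wild type mouse 1 lay 0.50 to 0.55 under its group mean in every medium and knockout mouse 3 lay 0.37 to 0.58 above it, in log2 CPM. Likewise for Ptgs1, wild type mouse 2 lay 0.36 to 0.44 under the mean of its group in every medium.

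Alox5ap, the membrane protein that presents arachidonic acid to 5-lipoxygenase, was higher in OxLDL than in control in 6 of 6 mice, by 0.20 to 0.58 on the log2 scale. In the knockout it had 259, 226 and 214 CPM in control, 285, 257 and 264 CPM in AcLDL and 304, 337 and 297 CPM in OxLDL, so the OxLDL group lay above both others. In wild type it had 380, 234 and 301 CPM in control, 336, 260 and 366 CPM in AcLDL and 471, 269 and 417 CPM in OxLDL, where wild type mouse 2 was the lowest of the 3 in every medium and the groups overlapped. With the block Alox5ap rose with OxLDL by 0.43 in the knockout (SE 0.10, edgeR adjusted p = 0.00364) and by 0.33 in wild type (SE 0.10, adjusted p = 0.0433). Without the block the adjusted p was 0.318 and 0.567. The blocked call in the knockout was lost without mouse 2 (0.102) or mouse 3 (0.0694) and that in wild type without any 1 of the mice (0.0538 to 0.400).

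Neutrophils also hold much Alox5ap. Of 10 neutrophil markers, 7 to 9 were detected in each group, and Retnlg had 0 counts in every library. Their summed level was 101 to 150 CPM in wild type control, 103 to 235 CPM in wild type AcLDL and 185 to 329 CPM in wild type OxLDL. In the knockout it was 58.2 to 149 CPM in control, 41.1 to 100 CPM in AcLDL and 92.4 to 148 CPM in OxLDL. Its part in the Alox5ap result was not tested, and fewer cells of a type and less RNA per cell cannot be told apart in bulk libraries.

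Alox5, which makes leukotriene A4, spread widely between mice. In wild type it had 28.8, 8.38 and 10.2 CPM in control, 22.8, 7.39 and 23.1 CPM in AcLDL and 15.2, 10.5 and 21.5 CPM in OxLDL. In the knockout it had 6.63, 9.29 and 11.6 CPM in control, 10.2, 11.1 and 14.5 CPM in AcLDL and 5.89, 9.58 and 22.0 CPM in OxLDL. All groups overlapped, and no LDL comparison called Alox5 in either fit.

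Lta4h, the hydrolase that makes leukotriene B4, lay between 47.3 and 84.5 CPM over all 18 libraries and was called in no comparison. Its log2 fold changes with LDL lay between -0.14 (SE 0.15) and 0.057 (SE 0.15). Ltc4s, which joins leukotriene A4 to glutathione, had 0 to 7 counts per library, with 3 or fewer in 12 of 18. Its counts in OxLDL were 2, 6 and 7 in wild type and 2, 2 and 0 in the knockout.

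Knockout and wild type were compared in each medium and over the media, with the counts of a mouse summed for the latter. In every one of these comparisons 0 of 10 members passed in either fit. Without the block, the share of all genes that passed was 0.00814% in control medium, 0.0163% in AcLDL, 0.00814% in OxLDL and 0.00789% over the media. With the replicate number as a block it was 0.0325%, 0.0732%, 0.00814% and 0.0158%. An unadjusted p under 0.05 was seen for 2 members in control medium (4% of all genes), 0 in AcLDL (4.89%), 1 in OxLDL (4.78%) and 0 over the media (4.14%). The genotypes did not overlap for 0 members in control medium (9.28% of all genes), 1 in AcLDL (10.4%), 1 in OxLDL (9.30%) and 1 over the media (9.87%). In control medium the members with an unadjusted p under 0.05 were Ptgs1, at 28.0 ± 8.16 CPM in the knockout against 44.3 ± 11.1 CPM in wild type (SD, n = 3), and Alox5ap, at 233 ± 23.1 against 305 ± 73.0 CPM. Their log2 differences were -0.64 (SE 0.29) and -0.38 (SE 0.18), each with an edgeR adjusted p of 1. Both overlapped between the genotypes. In OxLDL the member with an unadjusted p under 0.05 was Pla2g4a, which also overlapped, at 78.3 ± 14.2 CPM in the knockout against 52.4 ± 18.5 CPM in wild type, with a log2 difference of 0.56 (SE 0.22, adjusted p = 0.933).

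Over the media Lta4h was the only member whose genotypes did not overlap, and its log2 difference was -0.24 (SE 0.11, edgeR adjusted p = 0.98). The Lta4h levels were 57.1 ± 3.84 CPM in the knockout against 71.0 ± 12.7 CPM in wild type in control medium, 51.8 ± 5.01 against 63.8 ± 3.75 CPM in AcLDL and 59.5 ± 4.06 against 64.4 ± 5.57 CPM in OxLDL (SD, n = 3). In AcLDL the member that did not overlap was also Lta4h, and in OxLDL it was Ltc4s. The summed Ltc4s counts in OxLDL were 4 in the knockout and 15 in wild type, a ratio of 0.260 (exact 95% interval 0.0628 to 0.816, counting error only), with an edgeR adjusted p of 0.933. For Hpgd the log2 difference over the media was -0.0032 (SE 0.25), and the responses of the genotypes to AcLDL differed by 0.074 (SE 0.45). The genotype difference in response was called for 0 members with either LDL in either fit, with 0% of all genes passing for AcLDL and 0% for OxLDL without the block and 0.0407% and 0% with it. Without the block, 0 members had an unadjusted p under 0.05 for either LDL, where 2.66% and 2.75% of all genes did. The blocked value of Pla2g4a for OxLDL, whose unadjusted p was under 0.05, is given above.

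The wider pathway was read by 5 lists of genes. Among 18 tested genes of phospholipid and arachidonate handling, 0 rose and 2 fell with OxLDL in each genotype without the block, where 1.34% of all genes passed in wild type and 2.32% in the knockout. They were Acsl1, a long-chain acyl-CoA synthetase, and Lpcat2, which reacylates lysophospholipids and makes platelet-activating factor. Acsl1 went from 101 ± 26.8 to 60.9 ± 7.24 CPM in wild type and from 120 ± 7.81 to 69.5 ± 6.95 CPM in the knockout (SD, n = 3), with edgeR adjusted p of 0.0416 and 0.0132. It also fell with AcLDL in the knockout, to 68.4 ± 9.35 CPM (adjusted p = 0.0303), and with the block in wild type, to 66.4 ± 15.1 CPM (-0.61, SE 0.15, adjusted p = 0.0142). Lpcat2 went from 107 ± 19.0 to 65.1 ± 9.70 CPM in wild type and from 89.5 ± 6.32 to 50.6 ± 5.63 CPM in the knockout (adjusted p = 0.0145 and 0.00407), and with the block it also fell with AcLDL in wild type (-0.53, SE 0.13, adjusted p = 0.0169). With the block Pla2g7, the lipoprotein-associated phospholipase that degrades platelet-activating factor, was also called with OxLDL, higher by 0.54 (SE 0.10, adjusted p = 0.000589) in wild type and by 0.40 (SE 0.10, adjusted p = 0.0101) in the knockout. Pla2g7 went the other way with AcLDL in the knockout (-0.48, SE 0.11, adjusted p = 0.00603), and OxLDL levels exceeded AcLDL levels by 0.90 (SE 0.11, adjusted p = 1.78e-06) in wild type and 0.88 (SE 0.11, adjusted p = 3.42e-06) in the knockout. In the blocked fit 4.39% and 7.18% of all genes passed with OxLDL, 2.16% and 2.50% with AcLDL and 0.732% and 1.38% between the LDLs, in wild type and the knockout, and these shares apply to the blocked calls of the other lists too.

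Of 6 receptors tested, without the block 1 fell with OxLDL in wild type (1.34% of all genes passed) and 2 in the knockout (2.32%). Ptger4, the prostaglandin E2 receptor EP4, fell with OxLDL from 91.6 ± 31.7 to 37.2 ± 8.49 CPM in wild type and from 104 ± 27.4 to 42.8 ± 1.36 CPM in the knockout (SD, n = 3). The log2 fold changes were -1.30 (SE 0.24, edgeR adjusted p = 0.00369) and -1.27 (SE 0.23, adjusted p = 0.00228). Cysltr1, a receptor of cysteinyl leukotrienes, fell with OxLDL in the knockout from 51.3 ± 5.82 to 25.6 ± 6.52 CPM (-0.99, SE 0.25, adjusted p = 0.0344). With the block Ptger4 also fell with AcLDL in wild type (-0.70, SE 0.15, adjusted p = 0.00605), and in the knockout it was lower in OxLDL than in AcLDL (-0.97, SE 0.16, adjusted p = 0.000258), as was Cysltr1 (-0.73, SE 0.19, adjusted p = 0.0420). With the block Ptger2, the receptor EP2, was called in the opposite direction to Ptger4 with OxLDL in the knockout (1.02, SE 0.25, adjusted p = 0.00681). Its levels were 14.1 ± 3.23 CPM in control and 28.5 ± 6.38 CPM in OxLDL.

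A further list held other lipoxygenases, a cofactor and microsomal glutathione transferases, and 4 of its genes were tested. Mgst1, one of these transferases and not a lipoxygenase, rose with OxLDL in wild type from 70.8 ± 33.6 to 144 ± 38.6 CPM (log2 fold change 1.01, SE 0.25, edgeR adjusted p = 0.0379). In the knockout it was called only with the block (0.67, SE 0.15, adjusted p = 0.00234). The blocked fit also called Mgst1 higher in OxLDL than in AcLDL, by 0.78 (SE 0.14, adjusted p = 0.00178) in wild type and 0.84 (SE 0.15, adjusted p = 0.00127) in the knockout. Of 7 other prostanoid enzymes and 12 genes of breakdown and export, 0 were called without the block in any LDL comparison. With the block, Tbxas1, the thromboxane synthase, rose with AcLDL in wild type (0.47, SE 0.12, adjusted p = 0.0276). With OxLDL in wild type Ptgr1, an enzyme of the breakdown of prostaglandins and leukotriene B4, rose by 0.86 (SE 0.21, adjusted p = 0.0106) and Abcc1, an exporter of leukotriene C4, by 0.34 (SE 0.089, adjusted p = 0.0156). Abcc1 was also higher in OxLDL than in AcLDL in wild type (0.38, SE 0.089, adjusted p = 0.0251). Dpep2, a dipeptidase that acts on leukotriene D4, was lower with OxLDL in wild type (-0.40, SE 0.10, adjusted p = 0.0139) and the knockout (-0.34, SE 0.096, adjusted p = 0.0198).

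**Figure D5:**
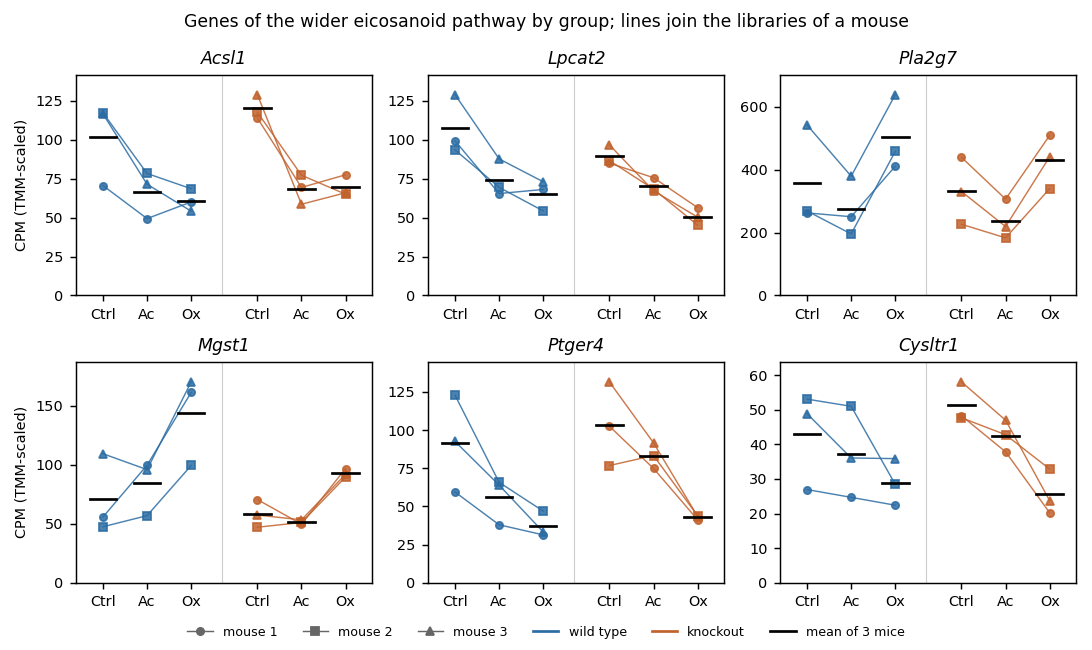
Level (TMM-scaled CPM, y axis from 0) of 6 genes of the wider pathway by medium (x axis: Ctrl, control; Ac, AcLDL; Ox, OxLDL) in wild type (blue) and knockout (orange); lines join the libraries of a mouse and bars are means of 3 mice. In both genotypes the OxLDL means of Acsl1, Lpcat2, Ptger4 and Cysltr1 lie under the control means and those of Pla2g7 and Mgst1 above, and Ptger4 in the knockout goes from 104 to 42.8 CPM.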

How the data were processed

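RNA of 18 macrophage cultures was made into libraries with a stranded total RNA kit and sequenced from one end. The authors trimmed the reads, aligned them to mm10 with STAR and deposited estimated counts per gene, summed over the transcripts of Ensembl release 93 by Salmon; versions of these tools are not given in the sources used here. The estimated counts were rounded here and scaled by TMM. Genes were kept by filterByExpr with at least 2 counts in a group's worth of libraries and 10 in all, which left 12290 genes (12673 for counts summed per mouse). Contrasts between the 6 groups were tested with edgeR 4.0.16 (R 4.3.3), quasi-likelihood F test, 12 residual degrees of freedom, adjusted by Benjamini-Hochberg over all genes; the steps were tested on simulated data. CPM are on TMM-scaled totals, and log2 CPM carry a prior count of 2. Library totals were 1043492 to 1768816 counts. Intervals on summed counts are exact at 95% and cover counting error only.

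The labels give the same mouse in the 3 media, and libraries of 1 mouse deviated together from their group means, with correlations of 0.0648 to 0.404 (17 of 18 pairs over 0.1). Mice of the same number in the 2 genotypes are different animals (correlations of -0.0256 to 0.0703), so the blocked genotype values rest on numbers only. Replicates of a group differed beyond sampling noise (chi-square per degree of freedom 2.03 to 12.7). The gene Gm26917 took 6.60% to 12.3% of the counts. The alternatives were other scalings, filters, DESeq2 1.42.0, the block and each library left out. All 10 members are named; genes of the lists are named where called, at most 6 per list. The members and lists were chosen with earlier results of these data known. Exon lengths come from GENCODE (GRCm38) and promoters from RefSeq. Gene overlaps on the opposite strand were treated as separate genes.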

Additional observations from a re-analysis of the deposited data

How the results depend on the processing

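The results followed were 12 counts of members called and 18 pairs of a member and a comparison. The pairs were those with an unadjusted p under 0.05 without the block or an adjusted p under 0.05 with it. None of them changed sign under any alternative run, which this choice itself favours, and a count has no sign to change. Pairs not followed could change sign. With 1 library left out, the log2 fold change of Ptgs1 with AcLDL in wild type ran from -0.090 to 0.28. Over the alternatives the pairs kept their call in 262 cases, became called in 45 and lost the call in 4. The counts stayed the same in 182 cases and moved in 34. With the replicate block by mouse the members called numbered 1 (AcLDL) and 3 (OxLDL) in wild type, 2 and 4 in the knockout, and 2 (wild type) and 1 (knockout) for OxLDL against AcLDL. The 6 counts were 1, 2, 2, 4, 2 and 1 in the same order with the block and each genotype fitted alone, an alternative chosen after seeing the data. Leaving 1 mouse out of the blocked fit, also chosen after seeing the data, gave 1 to 2 members in wild type and 1 to 2 in the knockout with AcLDL, 0 to 2 and 2 with OxLDL, and 0 to 1 in wild type for OxLDL against AcLDL. Without a filter on low counts 1 member was called with AcLDL in wild type, 2 with AcLDL and 2 with OxLDL in the knockout and 1 for OxLDL against AcLDL in wild type. A fit of only the libraries compared called 2 with each LDL in the knockout. The cause of these moves was not tested. Without each replicate in turn, the count for OxLDL in the knockout ranged from 0 to 1 and the other 11 stayed at 0. The block changed no other call among the members. DESeq2, the other scalings, the default filter and Gm26917 left out kept each count. Scaling by library totals moved the median of all genes by at most 0.061 (log2). It called 108 genes higher and 166 lower with OxLDL in the knockout, against 81 and 204, and 15 and 46 with AcLDL, against 9 and 55.

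Ptgs2, Ptges and Ltc4s were limited by depth, since 3 counts or fewer in most libraries leave only very large changes detectable.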
